A study of Mus musculus with 2 samples.

Results

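ATF4 is a basic leucine zipper (bZIP) transcription factor at the centre of the integrated stress response, in which cells slow general protein synthesis and switch on genes that restore amino acid supply and protein folding. The response starts when a kinase such as GCN2, which senses uncharged tRNA, phosphorylates the initiation factor eIF2. Most mRNAs are then translated less, while the Atf4 mRNA, whose leader carries short upstream reading frames, is translated more. ATF4 in turn drives genes that extend the response, end it or restrain growth. The 10 genes described here are Atf4, the gene of its kinase GCN2 (Eif2ak4), its bZIP partners and relatives Atf3, Ddit3 and Cebpb, and the regulators Ddit4, Trib3, Chac1, Sesn2 and Ppp1r15a. They were chosen by name, as the rows carrying these symbols, and all 10 were found among 22756 gene rows.

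The counts are of ribosome-protected mRNA fragments (footprints), which reflect both how much of an mRNA was present and how heavily it was translated. Matched mRNA was not analysed here, so abundance and translation cannot be separated. The footprints came from the ileum, the distal small intestine. The mice were C57BL/6, wild type, at postnatal day 21, and were either fed or fasted for 48 h. There was 1 library per group. The number of animals behind each library is not given in the sources. Footprints assigned to genes numbered 5558620 (fed) and 5434252 (fasted), and reads overlapping no counted feature made up 13.4% and 21.0% of all counted reads. Every difference below is between these 2 libraries, has no replicate check and carries no p-value, and intervals cover counting error only. Levels are counts scaled to library size (CPM) after TMM scaling, which sets the typical gene's ratio near 1. Plain CPM, scaled by total gene counts only, lowers every fasted/fed log2 ratio by 0.32.

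Markers of the absorptive cells of the ileum were detected, though no markers of other gut segments were set beside them. All 8 markers of the ileal enterocyte were measured, 6 of them higher and 0 lower in the fasted library, and their summed level was 10786 CPM fed and 15740 CPM fasted. The summed level of 10 general enterocyte markers was 42599 and 104363 CPM, with 7 higher and 0 lower. Markers of smooth muscle went the other way, with 6 of 8 lower (4765 and 2533 CPM), as did 8 of 8 of B and plasma cells (842 and 389 CPM). Of 8 fibroblast markers 4 were lower and 2 higher (4957 and 2147 CPM). Myeloid markers summed to 438 and 368 CPM, with 1 of 8 measured higher and 1 lower. In that list the granulocyte genes S100a8 and S100a9 had no fed read and 1 and 2 fasted reads, while Csf1r, a macrophage receptor gene named after its value was seen, had 863 and 706. With plain CPM 5 ileal enterocyte markers were higher and 1 lower, and 6 general enterocyte markers were higher and 0 lower. On that scale 7 smooth muscle, 8 B and plasma cell, 5 fibroblast and 4 myeloid markers were lower, and 0 markers in these 4 lists were higher. In whole tissue, fewer cells of a type and less RNA per cell cannot be told apart, and the part of these shifts in the results below was not tested.

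Between the libraries the 10 genes did not move together. Genes with 30 or more counts over both libraries together are called measured. They are called higher or lower in the fasted library where the ratio passed 1.5-fold and its 95% exact interval lay on the same side of 1. Of the 10, 8 were measured, and of these 5 were higher (Ddit4, Trib3, Ppp1r15a, Sesn2 and Cebpb), 2 were lower (Atf3 and Eif2ak4) and Atf4 itself was neither. Over all 11333 measured genes the same rule called 17.3% higher and 17.3% lower. With plain CPM, 3 remained higher (Ddit4, Trib3 and Sesn2) and the same 2 lower, against 8.86% and 31.2% of all measured genes. The same shares are the background to the list counts below. Ppp1r15a and Trib3 reached 30 counts mainly through the fasted library, so the count of measured members favours higher genes there and is given as a description.

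**Figure D1:**
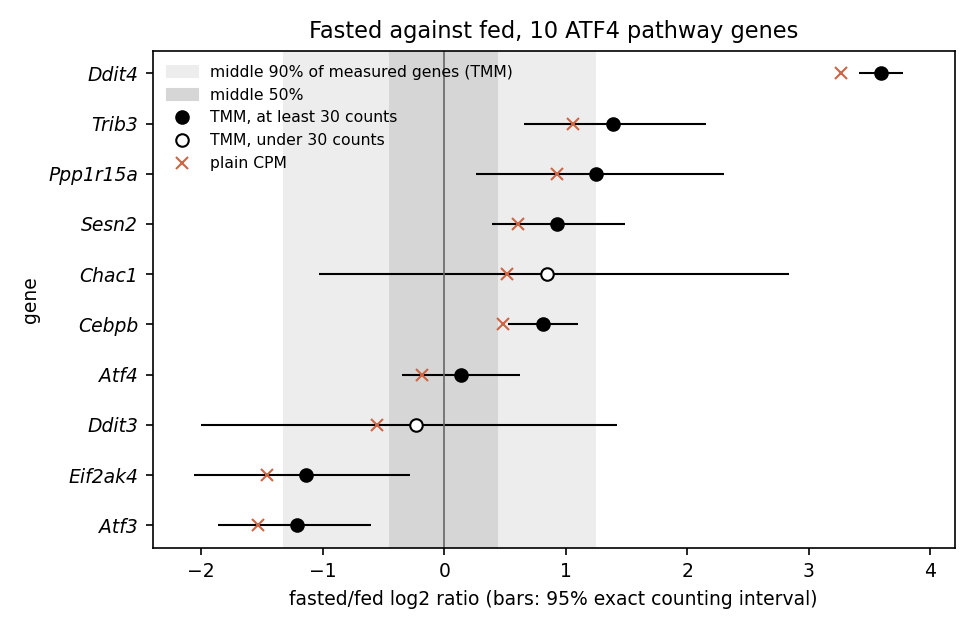
Fasted/fed log2 ratio (x axis) of each of the 10 genes (y axis), with points for TMM scaling, bars for the 95% exact counting interval, crosses for plain CPM and grey bands for the middle 50% and 90% of measured genes. Ddit4 lies alone at 3.59, Atf4 lies within the middle 50%, and the open points of Ddit3 and Chac1, under 30 counts, have intervals on both sides of 0.

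Atf4 (ENSMUSG00000042406, mm10 chr15:80255184-80257541, plus strand) had 79 fed and 68 fasted counts. These were 12.7 CPM (95% exact Poisson interval 10.1 to 15.8) and 14.0 CPM (10.9 to 17.7), which overlap. The fasted/fed log2 ratio was 0.14 (interval -0.35 to 0.63), or -0.18 with plain CPM (-0.67 to 0.30). No difference was detectable at this depth, and the interval leaves room for ratios from 0.784 to 1.54. With 2 libraries a gene's pattern is a single ratio and a single level, and 1372 other measured genes lay within 0.1 of Atf4's log2 ratio. The 3 nearest in ratio and mean level were Man2a2, with the same counts of 79 and 68, Brca1 (80 and 70) and Mios (80 and 67).

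Footprint counts per gene do not show where on an mRNA the ribosomes sat, and for Atf4 this matters because of its leader. In GENCODE vM21 the Atf4 transcript has a 5′ leader of 594 nt with 3 ATG triplets. The second opens a frame of 3 codons, 196 nt before the coding start, and the third a frame of 59 codons that begins 97 nt before the coding start and ends 83 nt inside the coding sequence, in another reading frame. These are the short and the overlapping upstream frames for which Atf4 is known. Ddit3 has 2 ATG triplets in a leader of 186 nt, in a shared frame of 34 codons from the first, and the annotation also lists that 105 nt frame as a coding gene record of its own with the same symbol. Ppp1r15a has 7 in its longest leader (764 nt) and 3 in a shorter one (283 nt), Atf3 and Sesn2 have 1 each, and Ddit4, Trib3, Chac1, Eif2ak4 and Cebpb have 0 in the transcript with the longest coding sequence. Other annotated Eif2ak4 transcripts hold up to 11, in a leader of 829 nt, and their frames were not traced. Among 15831 coding genes with a leader 51.7% have at least 1 ATG. The sources do not say whether leader footprints were counted to the gene, so the Atf4, Ddit3 and Ppp1r15a values may hold footprints of upstream frames.

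**Figure D2:**
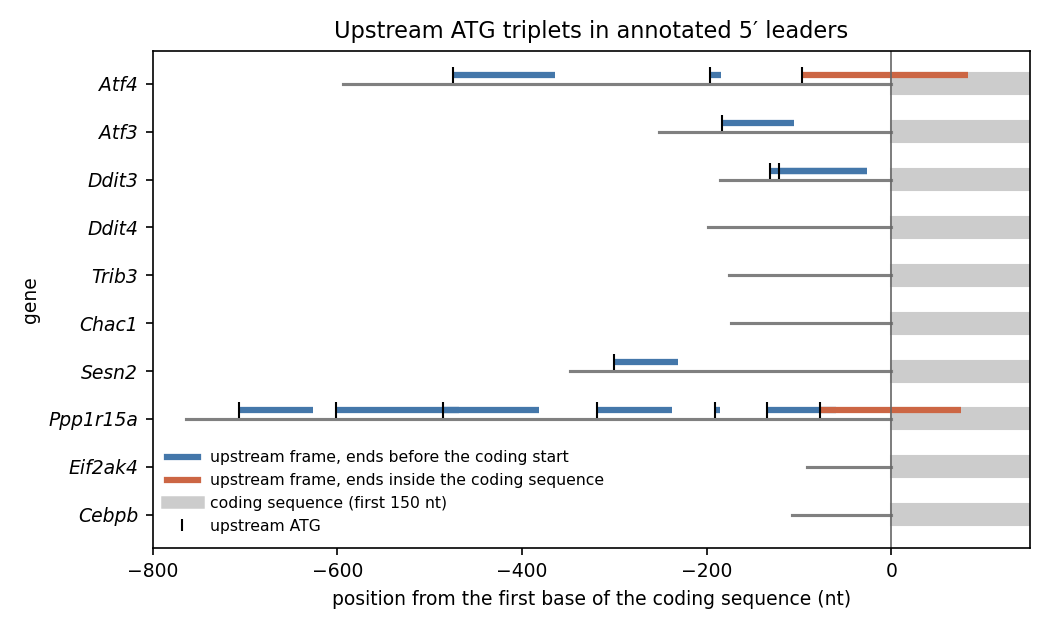
Annotated 5′ leaders of the 10 genes (y axis) drawn to scale against the distance from the coding start in nt (x axis), with ticks for upstream ATG triplets and coloured bars for the frames they open. Among the longest coding transcripts, which are those drawn, only the Atf4 and Ppp1r15a leaders hold a frame that runs into the coding sequence, starting 97 and 77 nt before it.

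Eif2ak4 encodes GCN2, the eIF2 kinase that senses amino acid shortage (chr2:118388618-118475234). It had 45 fed and 16 fasted counts, 7.24 CPM (interval 5.28 to 9.69) and 3.29 CPM (1.88 to 5.35). The fed level was higher, with intervals that overlap narrowly, and the fasted library was 2.20-fold lower (log2 ratio -1.14, interval -2.06 to -0.29). With stricter intervals Eif2ak4 was no longer called. The list of eIF2 kinases and their activators, which holds Eif2ak4 itself, had 7 measured. Of these 4 were lower, 1 higher and 2 neither (4, 0 and 3 with plain CPM). Over all measured genes 17.3% were lower and 17.3% higher, or 31.2% and 8.86% with plain CPM. The list's median log2 ratio was -0.71 beside 0.0028 over all measured genes. Eif2ak2, the kinase PKR that responds to double-stranded RNA, went from 231 to 55 counts (log2 ratio -1.71, interval -2.17 to -1.29), and its activator Prkra from 211 to 76 (-1.12, -1.52 to -0.73). Gcn1l1, which activates GCN2 on the ribosome, went from 943 to 449 counts (-0.72, -0.88 to -0.55). Eif2ak1, the haem-regulated kinase, was the higher one, with 248 and 330 counts (0.77, 0.53 to 1.01), but was neither with plain CPM. Eif2ak3 (PERK), the kinase of the endoplasmic reticulum, was neither at 251 and 212 counts (0.11, -0.16 to 0.38), and is named after its value was seen.

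Ppp1r15a encodes GADD34, which brings protein phosphatase 1 to eIF2 and so ends the response (chr7:45522916-45526268). It had 14 fed and 26 fasted counts, 2.25 CPM (interval 1.23 to 3.78) and 5.35 CPM (3.49 to 7.84). These intervals overlap narrowly. The fasted library was 2.38-fold higher with a wide interval (1.20 to 4.92), which held 1 with plain CPM (log2 ratio 0.93, -0.065 to 1.98) and with stricter intervals. Its constitutive relative Ppp1r15b had far more counts, 548 and 553, and was neither (0.37, 0.20 to 0.54), as were the catalytic subunits Ppp1ca (-0.40) and Ppp1cb (-0.24). With plain CPM Ppp1ca was lower (-0.73). Ppp1cc had no read in either library, and none of its coding sequence is unique among annotated transcripts, so its reads could not be assigned. Of 13 measured genes for eIF2, the target of these enzymes, its exchange factor eIF2B and reinitiation factors, 10 were neither, with 1 higher (Eif5, 0.60) and 2 lower, Mcts1 (-0.68) and the eIF2 subunit gene Eif2s2 (-0.64). With plain CPM 6 were lower and 0 higher. Only 14.6% of the Eif2s2 coding sequence is unique, so its value rests on few positions.

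Among the bZIP partners, Atf3 was lower, Cebpb was higher and Ddit3 was too sparse to place. Atf3 (chr1:191170296-191218039), a repressor induced by many stresses, had 89 fed and 30 fasted counts. At 14.3 CPM (interval 11.5 to 17.6) and 6.17 CPM (4.17 to 8.81) the intervals did not overlap, and the fasted library was 2.32-fold lower (log2 ratio -1.21, -1.86 to -0.60; -1.54 with plain CPM). Cebpb (chr2:167688915-167690418), the C/EBP factor that pairs with ATF4 on its response element, had 176 and 241 counts, 28.3 CPM (24.3 to 32.8) and 49.6 CPM (43.5 to 56.3). That was 1.75-fold higher in the fasted library (log2 ratio 0.81, 0.52 to 1.098), but 1.40-fold with plain CPM, under the threshold. Exons of the opposite-strand gene Tmem189 cover 20.7% of the Cebpb exon and 66.8% of its coding windows are unique among annotated transcripts. No label states the strand setting, and whether reads in the shared stretch were counted is not known. Tmem189 itself had 3 and 4 counts. Ddit3 (CHOP; chr10:127290774-127296288), which promotes cell death in prolonged stress, had 9 and 6 counts, 1.45 CPM (0.66 to 2.75) and 1.23 CPM (0.45 to 2.69). A count of 0 would allow up to 3 counts, 0.483 CPM fed and 0.617 CPM fasted. The ratio interval of 0.25 to 2.68 shows no direction.

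The list of bZIP partners and relatives had 19 measured, with 5 higher, 4 lower and 10 neither (3, 7 and 9 with plain CPM). It holds Atf4, Atf3, Cebpb and the unmeasured Ddit3 too. Without these members, 4 of 16 measured were higher, 3 lower and 9 neither (3, 6 and 7 with plain CPM). Higher were Cebpd, a C/EBP factor of acute responses (201 and 371 counts, log2 ratio 1.24, 0.99 to 1.49), and the AP-1 subunits Junb (1.11) and Fos (0.95). Lower besides Atf3 were Nfe2l2, the antioxidant factor NRF2 (1577 and 310 counts, -1.99, -2.17 to -1.81), Creb1 (-1.35), and Cebpg, another partner of ATF4 (-1.09). Atf5, which is also controlled by upstream frames, had 7 and 4 counts and was not measured, and is named after its value was seen.

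Ddit4 stood apart from the rest. Ddit4 (chr10:59949669-59951834, minus strand) encodes REDD1, which restrains the growth kinase complex mTORC1 and is induced by ATF4, by glucocorticoids, by low oxygen and by DNA damage. It had 271 fed and 2550 fasted counts, 43.6 CPM (interval 38.6 to 49.1) and 525 CPM (505 to 546). The fasted library was 12.0-fold higher (log2 ratio 3.59, 3.41 to 3.78), and 9.62-fold with plain CPM. No other of the 10 genes came near this, and its ratio was above that of 99.7% of measured genes. Ddit4 held 35.6% of the 761 counts of the 10 genes in the fed library and 83.2% of 3066 in the fasted library. Without it, the other 9 summed to 490 and 516 counts. Its relative Ddit4l had 13 and 3 counts and was not measured, and is named after its value was seen.

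Trib3, Sesn2 and Chac1 are further targets of ATF4. Trib3 (chr2:152337422-152344032), a pseudokinase that binds ATF4 and damps its activity, had 24 and 49 counts, 3.86 CPM (interval 2.47 to 5.74) and 10.1 CPM (7.46 to 13.3). The intervals did not overlap, and the fasted library was 2.61-fold higher (log2 ratio 1.39, 0.65 to 2.15; 1.06 with plain CPM). Sesn2 (chr4:132492032-132510501), a leucine sensor that restrains mTORC1, had 49 and 73 counts, 7.88 CPM (5.83 to 10.4) and 15.0 CPM (11.8 to 18.9). These intervals did not overlap after TMM scaling, which is the only scaling for which they are given. It was 1.91-fold higher (0.93, 0.39 to 1.48) and 1.52-fold with plain CPM, just past the threshold. Chac1 (chr2:119351229-119354381), a glutathione-degrading enzyme, had 5 and 7 counts, 0.80 CPM (0.26 to 1.88) and 1.44 CPM (0.58 to 2.97). Its ratio interval of 0.49 to 7.16 allows either direction. Close relatives did not share a direction. Sesn1 was higher (610 and 1404 counts, log2 ratio 1.56, 1.42 to 1.70) and Sesn3 lower (71 and 18, -1.62, -2.46 to -0.86), while Trib1 (0.33) and Trib2 (-0.81) were neither. With plain CPM Trib2 was lower (-1.14). Trib1 and Trib2 are named after their values were seen.

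The response element to which ATF4 binds with a C/EBP partner has the core TGATGNAA, most often TGATGCAA. It was searched on both strands in RefSeq promoter windows (GRCm38.p6, from 250 bases before to 50 after the annotated start), which were found for all 10 genes. TGATGCAA was in 2 of the 10, Atf3 and Chac1, beside 0.895% of 32851 windows of all genes, and TGATGNAA was also in Trib3, at base 15 after the start, beside 3.97% of windows. A looser form, TGNNGCAA, which includes every TGATGCAA and was chosen after the sequences were seen, was in 4 of the 10 (Atf3, Trib3, Chac1 and Sesn2), beside 11.4%. The stretches before the start of the 3 genes with a planned match are given 5′ to 3′ on the gene's strand, with matches to any of the 3 forms in capitals. The Atf3 stretch lies inside the gene's longest annotated extent.
Atf3, chr1:191183410-191183469, minus strand: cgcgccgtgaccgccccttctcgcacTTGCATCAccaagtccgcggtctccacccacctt
Chac1, chr2:119350992-119351082, plus strand: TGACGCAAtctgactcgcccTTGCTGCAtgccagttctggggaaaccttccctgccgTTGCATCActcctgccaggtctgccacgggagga
Trib3, chr2:152344061-152344119, minus strand: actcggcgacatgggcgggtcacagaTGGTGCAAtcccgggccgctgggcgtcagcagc
TTGCATCA is TGATGCAA read on the opposite strand. Atf3, with TGATGCAA before its start, was lower in the fasted library. Trib3, with the looser form before its start and TGATGNAA after it, was higher. Chac1, with TGATGCAA and further matches to the looser form, was not measured. Ddit4, the highest, had none of the 3 forms in its window. A match is a description of these letters, and no match says nothing of the factor elsewhere.

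A ratio of ratios, in which library scaling cancels, sets the other 9 genes against Atf4. The fasted/fed ratio of Ddit4 was 10.9 times that of Atf4 (95% exact conditional interval 7.60 to 15.7). Trib3 was at 2.36 times (1.27 to 4.47), Sesn2 at 1.73 times (1.03 to 2.90) and Cebpb at 1.59 times (1.07 to 2.36), so these 4 stood above Atf4 beyond counting error whichever scaling is used. Atf3 was at 0.393 times (0.223 to 0.683) and Eif2ak4 at 0.415 times (0.20 to 0.828), below Atf4. For Ppp1r15a (2.15, 0.99 to 4.83), Ddit3 (0.776, 0.216 to 2.59) and Chac1 (1.62, 0.421 to 6.79) the interval held 1.

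Per kilobase of coding sequence, the level differed widely among the 10 genes. In the fed library the order ran from Ddit4 (63.5 TMM-scaled CPM per kb) over Cebpb (31.9), Atf3 (26.4), Atf4 (12.1) and Sesn2 (5.47) to Trib3 (3.64), Ddit3 (2.87), Eif2ak4 (1.46), Chac1 (1.20) and Ppp1r15a (1.14). Neighbours from Sesn2 downward, and Cebpb and Atf3, did not differ beyond counting error. In the fasted library Ddit4 was at 764 CPM per kb, 13.7 times Cebpb (55.9), which was in turn 4.18 times Atf4 (13.4). Atf3 (11.4), Sesn2 (10.4) and Trib3 (9.50) followed Atf4 with no neighbour apart beyond counting error. Below a gap lay Ppp1r15a (2.71), Ddit3 (2.45) and Chac1 (2.15), and Eif2ak4 was last at 0.666. The Cebpb values may be too low, as it is not known whether reads in the stretch shared with Tmem189 were counted. The Atf4, Ddit3 and Ppp1r15a values may be too high, as it is not known whether leader footprints were counted. All values use the full length of the longest coding transcript of each gene. Atf3 was thus above Atf4 per length in the fed library, at 2.17 times (1.59 to 2.98), and at 1.45 times (1.06 to 1.99) with the median coding length. In the fasted library Atf4 was at 1.18 times Atf3 (0.755 to 1.87) with the longest and at 1.76 times (1.13 to 2.81) with the median coding length, so whether they stood apart there depends on the transcript length taken.

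**Figure D3:**
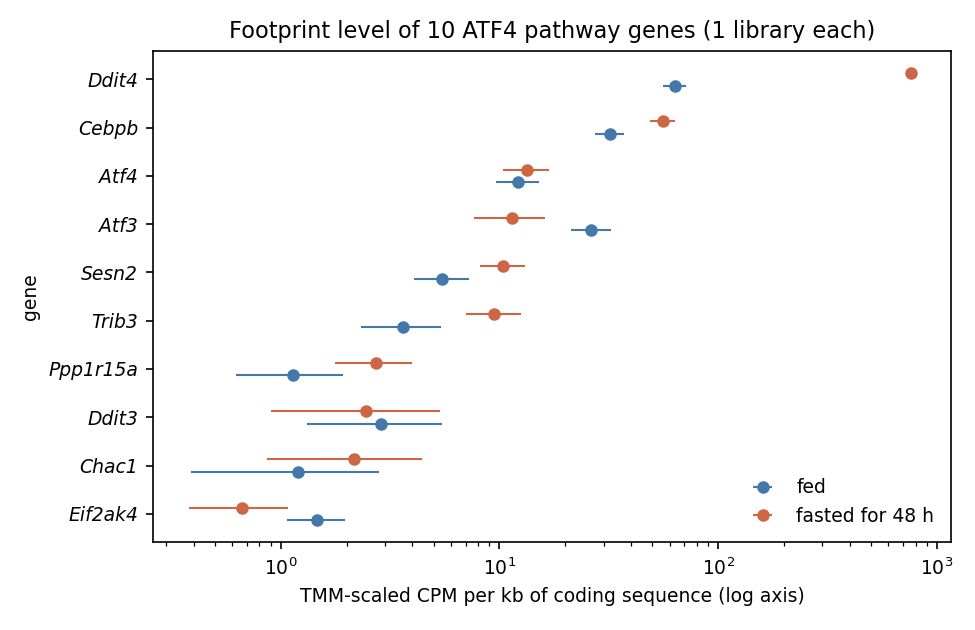
TMM-scaled CPM per kb of coding sequence (x axis, log scale) of the 10 genes (y axis) in the fed and the fasted library, with 95% exact Poisson intervals as bars. Ddit4 is the top gene in both libraries and moves from 63.5 to 764, while the Atf4 points nearly coincide.

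The wider targets of ATF4 did not share a direction either. Over 64 measured genes of 4 target lists, 19 were higher (29.7%), 10 lower (15.6%) and 35 neither, beside 17.3% higher and 17.3% lower over all measured genes. Their median log2 ratio of 0.0023 lay beside that of all measured genes, 0.0028. With plain CPM 15 were higher and 22 lower, beside 8.86% and 31.2% of all measured genes. The amino acid and one-carbon list had 5 of 22 higher and 4 lower (median -0.26; 4 higher and 10 lower with plain CPM). Lower were the biosynthetic genes Mthfd2 of mitochondrial folate metabolism (68 and 16 counts, log2 ratio -1.73, -2.62 to -0.93), Psat1 of serine synthesis (97 and 26, -1.54, -2.23 to -0.91) and Pycr1 of proline synthesis (50 and 15, -1.38, -2.32 to -0.53). Higher were the transporter gene Slc43a1 (18 and 110, 2.97, 2.24 to 3.77), the aminotransferase Got1 (725 and 1680, 1.57) and Slc3a2, the heavy chain of amino acid exchangers (2551 and 5603, 1.49). Asns, asparagine synthetase and the classical ATF4 target, named after its value was seen, was neither at 302 and 238 counts (0.011, -0.24 to 0.26; -0.31 with plain CPM).

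Secreted and other targets had 10 of 20 measured genes higher and 2 lower (median 0.56; 9 higher and 5 lower with plain CPM). Among the higher ones, Ndrg1 and Vegfa are also listed below as hypoxia-inducible targets, and Cdkn1a and Bbc3 as p53 targets. Ndrg1, a stress and low-oxygen gene, went from 575 to 5078 counts (log2 ratio 3.50, 3.37 to 3.63), Gadd45b from 56 to 269 (2.62, 2.20 to 3.06), and Herpud1, of protein degradation at the endoplasmic reticulum, from 987 to 4695 (2.61, 2.51 to 2.71). Stc2, a secreted glycoprotein (63 and 21, -1.23), and Ero1l, an oxidase of protein folding (240 and 123, -0.61), were lower. The tRNA synthetase list had 4 of 12 lower and 1 higher (median -0.34; 7 lower and 0 higher with plain CPM), with Iars (-0.999), Cars (-0.95) and Yars (-0.85) lower and Gars higher (0.89). Autophagy targets had 3 of 10 higher and 0 lower (median 0.36; 2 and 0 with plain CPM), the higher ones being Sqstm1 (1.24), Becn1 (1.30) and Atg7 (0.81). Gars and Atg7 were neither with plain CPM.

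**Figure D4:**
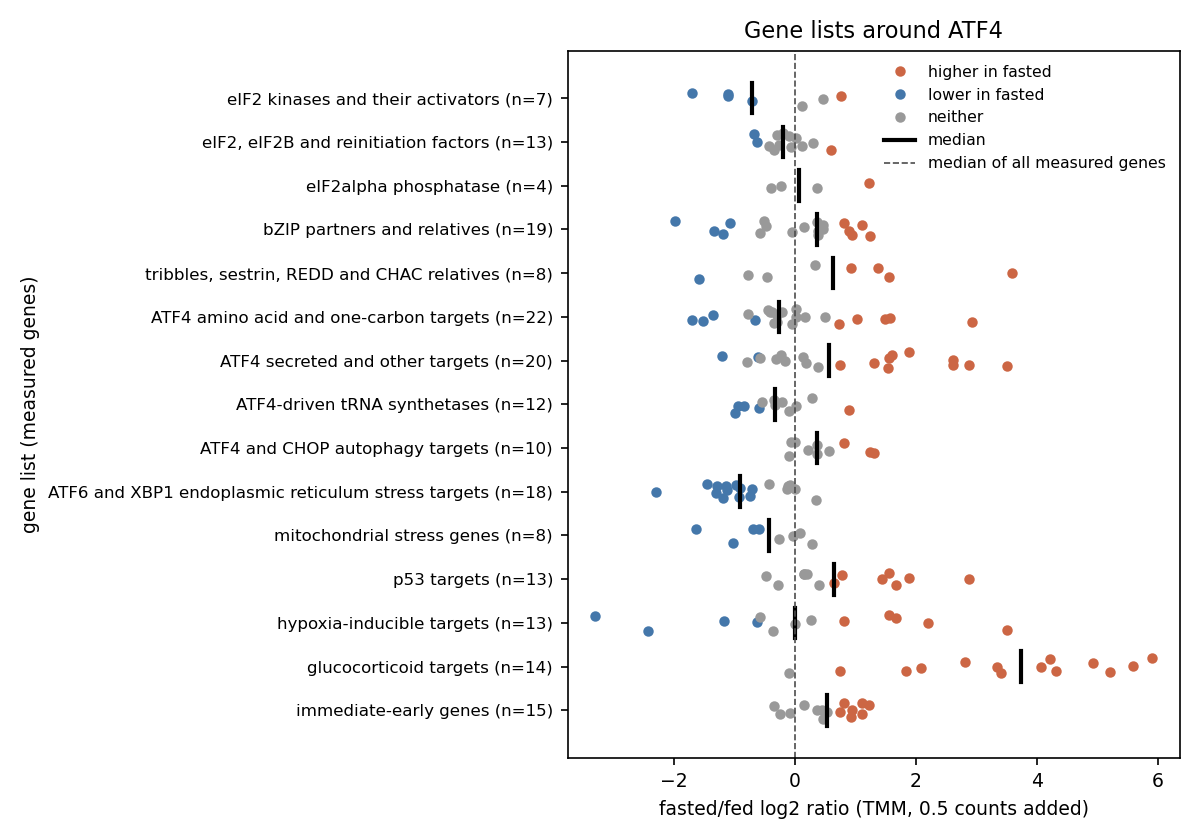
Fasted/fed log2 ratio (x axis, TMM with 0.5 counts added) of each measured gene in the lists around ATF4 (y axis, number measured in brackets), coloured by call, with a bar at each list's median and a dashed line at the median of all measured genes. The ATF4 target lists spread to both sides of the line, the endoplasmic reticulum list lies mostly to its left and the glucocorticoid list mostly to its right.

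In the lists of neighbouring stress programmes every called gene was lower, and the rest were neither or not measured. The list of genes that ATF6 and XBP1 drive in endoplasmic reticulum stress had 12 of 18 lower, 0 higher and 6 neither (median log2 ratio -0.92). With plain CPM 13 were lower and 0 higher. Over all measured genes 17.3% were lower, or 31.2% with plain CPM. The list leaves out Herpud1, an endoplasmic reticulum gene counted among the ATF4 targets above, which was higher (2.61). Creld2 (272 and 43 counts, -2.31, -2.81 to -1.84), the disulfide isomerase Pdia4 (2412 and 685, -1.46) and the chaperone Hsp90b1 (10988 and 3507, -1.29) were the lowest by interval bound. Of the markers of goblet cells, which are rich in these chaperones, 4 of 8 were lower too (summed level 50813 and 39208 CPM). B and plasma cell markers were lower in 8 of 8 (842 and 389 CPM). The part of any of these cell types in the chaperone values was not tested. Mitochondrial stress genes had 4 of 8 lower and 0 higher (median -0.44; 5 lower and 0 higher with plain CPM). The lower ones included Hspe1 (-1.66) and Hspd1 (-1.04), whose coding sequences are only 12.9% and 18.3% unique. Gdf15, a hormone made under stress, had 5 and 1 counts and was not measured, and is named after its value was seen.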

How the data were processed

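Per the labels' protocols, lysates were digested with nuclease, ribosome-bound fragments were pelleted through sucrose, and libraries were rRNA-depleted and amplified by PCR. As deposited, values are raw counts of reads for each gene symbol. Cutadapt, Bowtie 1.1.2, STAR, HTSeq and mm10 are named, with no role, per the submitters' processing notes. Annotation, strand setting and length filters are not given in the sources. Entries of NA were read as 0. Rows naming no gene were left out of library sizes: no counted feature (13.4% fed and 21.0% fasted), several alignments (41.4% and 39.9%) and ambiguous (0.209% and 0.196%).

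Libraries were scaled with TMM (edgeR 4.0.16, R 4.3.3), used for scaling only. Ratios carry 95% exact Clopper-Pearson intervals on the split of counts (scipy 1.17.1), and the counting functions were tested on simulated data. List medians used 0.5 added counts. Annotation is GENCODE vM21 (GRCm38, the assembly of mm10), with coordinates 1-based, and unique share is over 28-nt windows against all its transcripts, not the genome, as had been planned. A count of 0 allows up to 3 counts.

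The members and lists were chosen with earlier results of these data known. Named genes are the 10 members, up to 3 highest and 3 lowest per list by the interval bound nearest to 1, list genes at 0 in both libraries, and the 3 nearest to Atf4. Alternatives were plain CPM, DESeq2 1.42.0 size factors, upper-quartile factors, trimmed TMM, other count minimums, fold thresholds, intervals and added counts, and another coding length.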

Additional observations from a re-analysis of the deposited data

How the results depend on the processing

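With plain CPM the number of members higher was 3 (from 5) and the ATF4 target lists had 22 lower (from 10) at a median log2 ratio of -0.32 (from 0.0023). A minimum of 200 counts left 2 members measured, with 2 higher and 0 lower, and 6 ATF4 targets lower. A 2-fold threshold gave 3 members higher and 4 targets lower, and stricter intervals gave 1 member lower (Atf3), without Eif2ak4. The other 36 of 45 alternative values of these 5 results stayed within 1.5 times or within the spread of intervals. Some of them could not move, as added counts enter no call, and the fold threshold and intervals do not enter the median. Of 90 alternative log2 ratios of single members 2 moved outside the main interval, Ddit4 and Cebpb with plain CPM (3.27 and 0.49). Count minimums, the fold threshold and stricter intervals do not enter a ratio, so only scalings and added counts could move these values. None of the called members changed sign, which no scaling used here could cause. The largest shift was 0.32, and Cebpb, the called member nearest to 0, lay at 0.81. Atf4 changed sign, from 0.14 to -0.18, with plain CPM, within its interval. With the median coding length, which counts a partial transcript, Atf4 stood at 18.2 and 20.05 CPM per kb. No paired analysis was possible because there is 1 library per group, and for the same reason no replicate could be left out. Depth limits Ddit3 and Chac1, with 15 and 12 counts in sum.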

Other observations

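Ddit4 and Sesn2 also answer to other regulators, and lists of those regulators' targets are given here as values. Over all measured genes 17.3% were higher and 17.3% lower, or 8.86% and 31.2% with plain CPM. Of 14 glucocorticoid targets 13 were higher in the fasted library and 0 lower (median log2 ratio 3.73), with 12 higher with plain CPM. By the interval bound nearest to 1 they were led by Pdk4 (5.91, interval 5.64 to 6.19), Mt2 (5.59, 5.29 to 5.92) and Mt1 (4.93, 4.76 to 5.10), beside 3.59 for Ddit4. Only 54.7% of the Mt2 coding sequence is unique. Which regulator acted on the listed genes was not tested. Of 13 measured p53 targets 7 were higher and 0 lower (median 0.65; 5 higher with plain CPM), including the cell cycle inhibitor Cdkn1a (850 and 2449 counts, 1.88, 1.77 to 1.996), the death gene Bbc3 (5 and 31, 2.99, 1.61 to 4.71) and Sesn1 (1.56). Targets of the hypoxia-inducible factors went both ways, 5 of 13 higher and 4 lower (median -0.0025; 4 higher and 6 lower with plain CPM). Vegfa, the vascular growth factor (158 and 364 counts, 1.56, 1.29 to 1.84), and Bnip3 (10 and 37, 2.24, 1.21 to 3.42) were higher beside Ndrg1. P4ha1, a collagen prolyl hydroxylase (209 and 30, -2.45, -3.05 to -1.89), Ankrd37 (31 and 2, -3.60, -6.71 to -1.62) and the oxygen sensor Egln3 (257 and 89, -1.17, -1.54 to -0.82) were lower. Only 7.68% of the Bnip3 coding sequence is unique, and Pgk1, with none unique, had no read in either library. Immediate-early genes, the class to which Atf3 is often assigned, had 7 of 15 higher and 0 lower (median 0.52; 5 higher with plain CPM), among them Zfp36 (498 and 906 counts, 1.22), Klf6 (879 and 1478, 1.11) and Junb (1.11), while Atf3 was at -1.21. Some genes reached 30 counts mainly through 1 library, such as Bbc3 and Bnip3 through the fasted and Ankrd37 through the fed library. The list counts are therefore given as a description. Several genes stand in more than 1 of these lists or also in the ATF4 target lists, so the lists are not separate.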
